A study of Arabidopsis thaliana with 33 samples.

Results

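The genes described here are the 80 of 32823 genes in the RNA tables whose symbol starts with ERF and a digit, with no other filter, and all 80 also stand among the 32833 genes of the H3ac ChIP-seq tables. The reference annotation names an AP2/ERF (ethylene response factor) DNA-binding domain for 77 of them. The other 3, ERF1-1, ERF1-2 and ERF1-3, are eukaryotic release factors that end translation and share only the letters of the name, so the label of a transcription factor family holds for 77 members. A further 32 AP2/ERF genes that carry other names, such as the CBF genes, fall outside the naming rule and are given only beside the members.

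AP2/ERF proteins form one of the largest plant transcription factor families. Groups I to IV make up the DREB subfamily, known for drought and cold responses through the DRE core element. Groups V to X make up the ERF subfamily, whose proteins bind the GCC box. In textbook ethylene signalling, receptors act through CTR1 and EIN2 on the transcription factors EIN3 and EIL1, which switch on ERF genes, and the ERF proteins then act on defence genes. Group IX holds mostly activators that respond within minutes to ethylene, jasmonate, wounding and pathogens. Group VIII includes repressors that carry the EAR motif, through which co-repressors and histone deacetylases are recruited.

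Seedlings were *Arabidopsis thaliana*, 12 days old and untreated, grown on plates under 16 h of light and 8 h of dark. RNA-seq covered the T-DNA insertion line hhp1, mbd124, which combines mutations in MBD1, MBD2 and MBD4 (genes of the methyl-CpG-binding domain), the quadruple mutant sant1234-null, the T-DNA insertion line hda6 and wild-type Col-0 (WT), with 3 labelled replicates each. ChIP-seq for acetylated histone H3 (H3ac), a mark found at active promoters that histone deacetylases such as HDA6 remove, covered sant1234-null, hda6 and WT, with 3 ChIP and 3 input samples each. From its title, the series concerns a complex of a domesticated Harbinger transposase with HDA6. The labels name no allele or insertion site, and whole seedlings were used, so fewer cells of a type and less RNA per cell cannot be told apart.

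The deposited tables hold 1 value per genotype, so no member has a replicate spread, and errors of log2 changes below are standard errors (SE) derived from the authors' test statistic. A member is called when the authors' deposited Cuffdiff table gives an adjusted p under 0.05 among the genes it marks as tested. All 4 comparisons share the same WT libraries, and differences between mutants were not tested. The target genes were checked first. In mbd124, MBD1 had 0.0476 FPKM against 15.5 FPKM in WT, MBD4 had 0.208 against 21.8 FPKM, and MBD2 had 6.45 against 17.5 FPKM. The authors' deposited Cuffdiff table called MBD2 lower (adjusted p 8.61e-04) but neither MBD1 (0.619) nor MBD4 (0.177), so a near-complete loss of RNA can fail this test. The log2 changes of MBD1 and MBD4 were -8.35 ± 1.05 and -6.71 ± 0.69, so a derived SE can be smaller than the adjusted p implies. Calls below rest on the adjusted p and not on the SE. HDA6 had 18.8 FPKM in hda6 against 17.0 FPKM in WT, so its RNA level does not check the label, and hda6 here means the libraries with that label. The loci behind hhp1 and sant1234-null were not analysed here. Leaf and root markers were present (RBCS1A at 4642 FPKM or more and PIN2 at 13.5 FPKM or more in every genotype). Some of these markers were called in the authors' deposited tables: the leaf gene CA1 lower in hhp1 (474 against 783 FPKM in WT), the root gene LRX1 lower in hhp1 (14.8 against 23.6 FPKM) and mbd124 (17.0 against 23.6 FPKM), and the root gene IRT1 higher in sant1234-null (log2 change 0.97 ± 0.26) and hda6 (0.87 ± 0.27). Their part in the changes of the members was not tested. The floral genes AP1, AP3 and AG were listed at 0.192 FPKM or less. The seed storage gene CRA1 was called higher in mbd124 (2.15 against 0.409 FPKM in WT) and in hda6 (0.988 against 0.402 FPKM in WT) in the authors' deposited tables.

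In WT seedlings the 80 members spanned 0 to 286 FPKM (fragments scaled to gene length and library size) with a median of 4.27 FPKM, and 28 members had less than 1 FPKM. The most abundant were ERF107 (280 to 286 FPKM over the 4 tables), ERF106 (183 to 187 FPKM), ERF104 (146 to 150 FPKM), ERF1A (74.1 to 75.7 FPKM) and ERF4 (65.6 to 67.0 FPKM). The first 4 of these belong to group IX, and ERF4 is a group VIII repressor. At the other end, 8 members were listed at 0 in WT and 5 of those (ERF095, ERF096, ERF120, ERF121 and ERF122) at 0 in all 5 genotypes. A listed 0 can be a failed estimate in these tables: the leaf gene LHCB1.3 was listed at 0 in WT and at 12620 FPKM or more in each mutant. Of the 80 members, 59 were tested in all 4 tables, 16 in none and 5 in some, and the 16 never tested all lay below 1 FPKM in WT. A compact gene structure is shared by most of the family: 69 of 77 AP2/ERF members (89.6%) had a single coding exon, against 24.6% of 27444 protein-coding genes.

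The share of tested members that was called stood above that of all tested genes in all 4 mutants. In hhp1, 2 of 59 tested members rose and 13 fell, that is 3.39% and 22.0% of them, against 2.88% and 3.26% of all 21097 tested genes (6.14% in either direction). In mbd124, 16 of 62 rose and 17 fell (25.8% and 27.4%), against 4.85% and 6.42% of all tested genes (11.3% in either direction). In sant1234-null, 9 of 64 rose and 16 fell (14.1% and 25.0%), against 9.33% and 5.93% of all tested genes (15.3% in either direction). In hda6, 8 of 61 rose and 12 fell (13.1% and 19.7%), against 7.25% and 4.79% of all tested genes (12.0% in either direction). Falls stood above the background in every mutant, while the rises in hhp1 stood near it. The median log2 change of the tested members was -0.13 in hhp1, 0.01 in mbd124, -0.01 in sant1234-null and -0.08 in hda6, against -0.00, 0.01, 0.00 and 0.02 for all tested genes. In mbd124, sant1234-null and hda6 the calls thus went in both directions around a centre close to that of all genes. In hhp1, by contrast, 13 of 15 calls were falls. In all, 37 members were called in at least 1 table and 43 in none. The matching share of all genes was not counted. Rises and falls were spread unevenly over the groups of the family, as the plot of RNA changes shows.

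**Figure D1:**
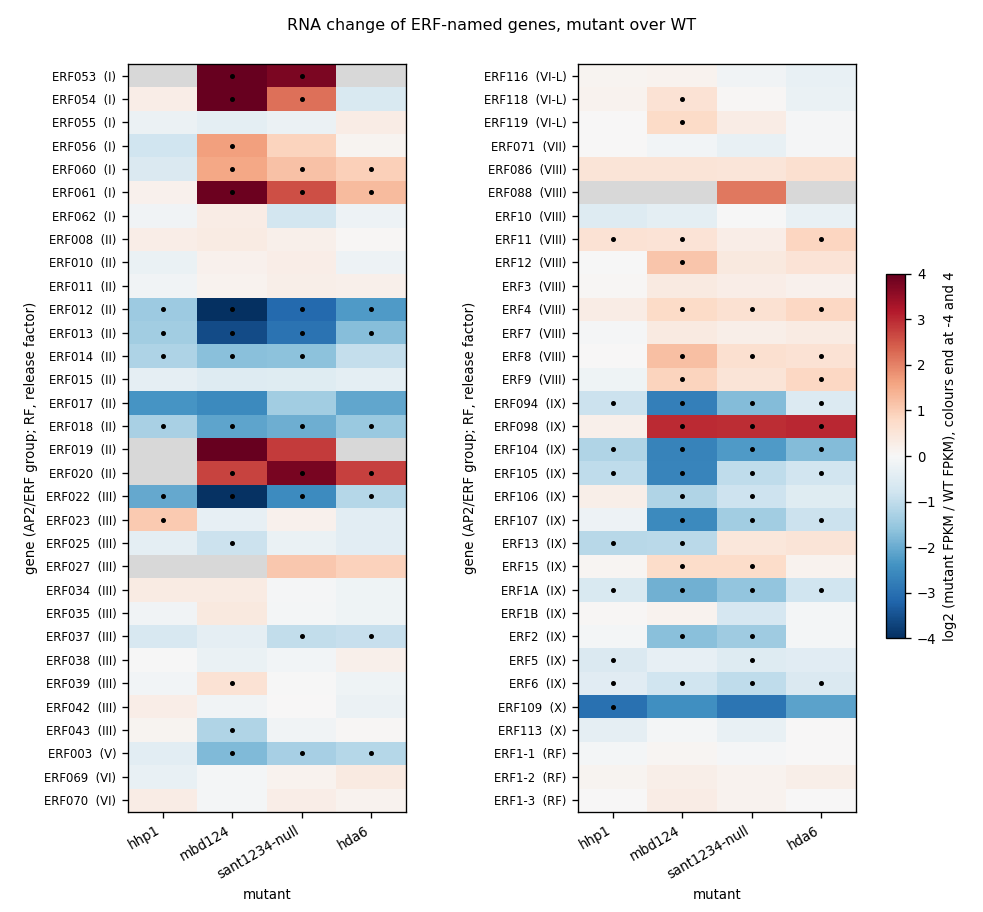
Log2 ratio of mutant FPKM over WT FPKM for the 64 ERF-named genes tested in at least 1 table, ordered by AP2/ERF group. Black dots mark calls at an adjusted p under 0.05 in the authors' deposited tables, grey cells were not tested, and colours end at -4 and 4. Groups I and VIII are mainly red and group IX mainly blue.

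Group I, the DREB branch around RAP2.4, held 5 of the 8 largest called rises in mbd124, 4 of 8 in sant1234-null and 2 of 8 in hda6. None of its 6 tested members was called in hhp1, whereas 5 of 7 rose in mbd124, 4 of 7 in sant1234-null and 2 of 6 in hda6, and none fell. Of all tested genes, 4.85% rose in mbd124, 9.33% in sant1234-null and 7.25% in hda6. ERF053 (AT2G20880), a factor known for drought tolerance, had 0.135 FPKM in hhp1, 14.9 in mbd124, 3.56 in sant1234-null and 0.263 in hda6, against 0.256 to 0.262 FPKM in WT. It stood apart in mbd124 and sant1234-null, with log2 changes of 5.84 ± 0.42 and 3.76 ± 0.43 (SE; Cuffdiff adjusted p 8.61e-04 and 7.23e-04 in the authors' deposited tables). It was tested only in those 2 tables, so its tests depended on the level it reached there.

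ERF054 (AT4G28140) was also highest in mbd124, with 0.915 FPKM in hhp1, 14.6 in mbd124, 3.58 in sant1234-null and 0.493 in hda6, against 0.757 to 0.773 FPKM in WT. Its log2 changes were 4.24 ± 0.29 in mbd124 and 2.21 ± 0.31 in sant1234-null, and in hhp1 and hda6 it was tested and not called. ERF061 (AT1G64380) rose in 3 mutants: 0.967 FPKM in hhp1, 13.2 in mbd124, 5.14 in sant1234-null and 2.04 in hda6, against 0.849 to 0.867 FPKM in WT. ERF053, ERF054 and ERF061 all stood near or below 1 FPKM in WT and between 13.2 and 14.9 FPKM in mbd124. ERF060 (AT4G39780), which already had 3.06 to 3.13 FPKM in WT, reached 9.14 FPKM in mbd124, 7.02 in sant1234-null and 5.93 in hda6, and had 2.08 in hhp1. Its log2 changes of 1.55 ± 0.20, 1.17 ± 0.21 and 0.96 ± 0.22 in the 3 mutants where it rose were smaller than those of ERF061 (3.93 ± 0.25, 2.57 ± 0.26 and 1.26 ± 0.29). ERF056 was called higher in mbd124 alone (2.29 against 0.740 FPKM in WT). ERF055 and ERF062 were called in no table.

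Group II, which includes the DEAR repressors of cold and defence genes, was divided. Of its tested members 4 of 9 fell in hhp1, 4 of 11 in mbd124, 4 of 11 in sant1234-null and 3 of 10 in hda6. Of all tested genes, 3.26%, 6.42%, 5.93% and 4.79% fell, in the same order. ERF012 (AT1G21910, also called DREB26) had 21.2 FPKM in hhp1, 3.44 in mbd124, 6.71 in sant1234-null and 11.9 in hda6, against 57.3 to 58.5 FPKM in WT. All 4 mutants lay well below WT, with log2 changes of -1.46 ± 0.14 in hhp1, -4.08 ± 0.20 in mbd124, -3.12 ± 0.17 in sant1234-null and -2.27 ± 0.17 in hda6 (adjusted p 0.00192, 8.61e-04, 7.23e-04 and 8.99e-04 in the authors' deposited Cuffdiff tables, in each case the smallest value that table holds).

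The close relative ERF013 (AT1G77640) kept the same order, with 2.92 FPKM in hhp1, 0.635 in mbd124, 0.999 in sant1234-null and 2.30 in hda6, against 7.51 to 7.67 FPKM in WT. ERF018 (AT1G74930, ORA47), an activator of jasmonate synthesis genes, had 3.23 FPKM in hhp1, 1.85 in mbd124, 2.05 in sant1234-null and 2.77 in hda6, against 7.84 to 8.01 FPKM in WT. Both were called lower in all 4 tables. ERF014 was called lower in hhp1 (1.64 FPKM), mbd124 (1.23) and sant1234-null (1.26), against 3.91, 3.91 and 3.92 FPKM in WT, and in hda6 it had 1.98 against 3.83 FPKM in WT (adjusted p 0.0538 in the authors' deposited table, not called). ERF020 (AT1G71520) went the other way, with 2.87 FPKM in mbd124, 6.14 in sant1234-null and 2.83 in hda6, against 0.431 to 0.440 FPKM in WT, and log2 changes of 2.71 ± 0.48, 3.80 ± 0.46 and 2.72 ± 0.49. In hhp1 it had 0.541 FPKM and was not tested. The DEAR genes ERF008, ERF010 and ERF011 were called in no table, with log2 changes between -0.28 and 0.34.

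Group III has the cold-response factors CBF1 to CBF3 as its best-known members, which are outside the naming rule and are described further below. Its ERF-named genes gave few calls. ERF022 (AT1G33760) was the one ERF-named gene of the group called lower in all 4 mutants. It had 2.42 FPKM in hhp1, 0.636 in mbd124, 1.74 in sant1234-null and 4.41 in hda6, against 9.71 to 9.92 FPKM in WT. Its log2 changes were -2.04 ± 0.21, -3.96 ± 0.34, -2.52 ± 0.24 and -1.14 ± 0.20. ERF037 was called lower in sant1234-null (1.64 against 3.28 FPKM in WT) and hda6 (1.69 against 3.21 FPKM in WT), and ERF043 (-1.19 ± 0.16) and ERF025 (-0.87 ± 0.26) were called lower in mbd124 alone. Called rises among the ERF-named genes of this group were limited to ERF039 in mbd124 (0.59 ± 0.19) and ERF023 in hhp1 (3.76 against 1.84 FPKM in WT, 1.04 ± 0.25). ERF023 gave the larger of the 2 rises called in hhp1. ERF003, the sole group V member here, had 3.19 FPKM in mbd124, 4.36 in sant1234-null and 4.86 in hda6, against 10.7 to 10.9 FPKM in WT, and was called lower in those 3 mutants. ERF118 (0.57 ± 0.15) and ERF119 (0.76 ± 0.15) of the cytokinin response factor-like group VI-L were called higher in mbd124. ERF069 and ERF070 of group VI and the hypoxia factor ERF071 (HRE2) of group VII were called in no table. The 3 release factors were also called in none, with log2 changes between -0.09 and 0.30.

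Group VIII, which holds the EAR repressors and also developmental regulators such as ERF086, moved only upward among its calls. Of its tested members 1 of 9 rose in hhp1, 5 of 9 in mbd124, 2 of 10 in sant1234-null and 4 of 9 in hda6, and none was called lower. Of all tested genes, 2.88%, 4.85%, 9.33% and 7.25% rose, in the same order. In hhp1 and sant1234-null the group's rises thus rest on 1 and 2 genes. ERF4 (AT3G15210), a repressor of jasmonate and ethylene outputs, had 82.3 FPKM in hhp1, 114 in mbd124, 102 in sant1234-null and 116 in hda6, against 65.6 to 67.0 FPKM in WT. The 3 mutants other than hhp1 were called higher, by log2 changes of 0.77 ± 0.15, 0.61 ± 0.16 and 0.82 ± 0.17. ERF8 had 14.1 FPKM in hhp1, 31.4 in mbd124, 21.6 in sant1234-null and 20.1 in hda6, against 13.5 to 13.8 FPKM in WT, and was called in the same 3 mutants. ERF11, known to counter ethylene synthesis, was called higher in hhp1 (0.57 ± 0.16), mbd124 (0.56 ± 0.17) and hda6 (0.86 ± 0.18). ERF9 was called higher in mbd124 (0.88 ± 0.22) and hda6 (0.83 ± 0.23), and ERF12 in mbd124 (1.11 ± 0.33). ERF3, ERF7 and ERF10 were called in no table, and the developmental regulator ERF086 (PUCHI) had 0.626 to 0.687 FPKM in the mutants against 0.440 to 0.449 FPKM in WT and was not called.

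Group IX held most of the falls. Of its 13 tested members 7 fell in hhp1, 9 in mbd124, 9 in sant1234-null and 6 in hda6, while 0, 2, 2 and 1 rose. Among all tested genes 3.26%, 6.42%, 5.93% and 4.79% fell and 2.88%, 4.85%, 9.33% and 7.25% rose, in the same order. ERF104 (AT5G61600), a target of the immune kinase MPK6, had 64.7 FPKM in hhp1, 23.4 in mbd124, 30.8 in sant1234-null and 43.9 in hda6, against 146 to 150 FPKM in WT. Its log2 changes were -1.21 ± 0.15, -2.67 ± 0.15, -2.28 ± 0.16 and -1.74 ± 0.17, and each of the 4 was called. ERF107 (AT5G61590, DEWAX), a repressor of wax synthesis, lies 832 bp from ERF104 on the same strand, with no annotated gene between them. It had 246 FPKM in hhp1, 49.2 in mbd124, 110 in sant1234-null and 153 in hda6, against 280 to 286 FPKM in WT. Unlike ERF104 it was not called in hhp1 (-0.21 ± 0.15, adjusted p 0.564 in the authors' deposited table). The difference between the 2 genes in hhp1 was not tested.

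ERF105 (AT5G51190), which is known for cold tolerance, had 30.4 FPKM in hhp1, 9.95 in mbd124, 30.7 in sant1234-null and 35.7 in hda6, against 60.6 to 61.9 FPKM in WT. The neighbours ERF1A and ERF6, which lie 5041 bp apart on opposite strands, were called lower in all 4 mutants as well. ERF1A had 49.4, 20.1, 25.6 and 42.7 FPKM in hhp1, mbd124, sant1234-null and hda6, against 74.1 to 75.7 FPKM in WT. ERF6 had 40.0, 31.1, 26.6 and 35.7 FPKM in the same order, against 53.2 to 54.4 FPKM in WT, and its lowest level was thus in sant1234-null and not in mbd124. ERF094 (ORA59), which joins jasmonate and ethylene signals at defence genes, had 6.76, 1.82, 3.65 and 8.25 FPKM, against 12.0 to 12.3 FPKM in WT. It is one of 9 members called lower in all 4 tables, which share their WT libraries: ERF012, ERF013, ERF018, ERF022, ERF094, ERF104, ERF105, ERF1A and ERF6. The share of all genes called lower in all 4 mutants was not counted, so the 9 cannot be read as an excess.

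Among the other group IX members, ERF106 was called lower in mbd124 (81.2 against 186 FPKM in WT) and sant1234-null (104 against 187 FPKM in WT), with 220 FPKM in hhp1 and 131 in hda6, neither of them called. ERF2, an activator of jasmonate defence genes, was called lower in the same 2 mutants (9.26 and 10.9 FPKM, against 29.2 and 29.3 FPKM in WT). In hhp1 and hda6 ERF2 had 27.7 and 27.3 FPKM, against 29.2 and 28.7 FPKM in WT. ERF13 was called lower in hhp1 (-1.12 ± 0.21) and mbd124 (-1.08 ± 0.23), while in sant1234-null and hda6 it had log2 changes of 0.45 ± 0.19 and 0.53 ± 0.20 that were not called. ERF5 was called lower in hhp1 (-0.57 ± 0.15) and sant1234-null (-0.51 ± 0.16). ERF1B (ERF1), the direct EIN3 target of textbook ethylene signalling, stood at 1.06 to 1.87 FPKM in the mutants and 1.66 to 1.70 FPKM in WT and was called in none.

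ERF098 (AT3G23230) was the main exception in group IX. It had 1.32 FPKM in hhp1, 8.92 in mbd124, 8.87 in sant1234-null and 9.05 in hda6, against 1.12 to 1.14 FPKM in WT. The 3 mutants other than hhp1 reached nearly equal levels, with log2 changes of 2.97 ± 0.35, 2.95 ± 0.35 and 3.02 ± 0.36 (adjusted p 8.61e-04, 7.23e-04 and 8.99e-04 in the authors' deposited Cuffdiff tables). Of its neighbours, ERF095, 776 bp away, was listed at 0 in all genotypes and tested in none, and ERF1B, 5452 bp away on the other side, was not called. ERF15 also rose, with 8.84 FPKM in mbd124 and 8.96 in sant1234-null, against 5.36 and 5.38 FPKM in WT, and it was not called in hhp1 or hda6.

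**Figure D2:**
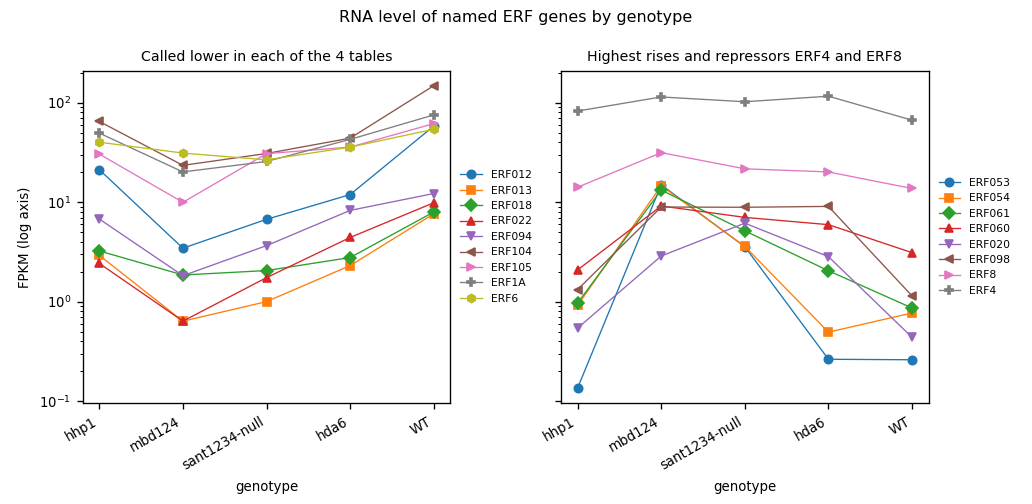
FPKM on a log axis, 1 deposited value per genotype with no error bar, for the 9 genes called lower in all 4 tables (left) and for 8 genes with rises (right). WT points are the mean of the WT values of the 4 tables, and lines only join the points of a gene. On the left the points of the mutants lie below WT, and 8 of the 9 genes are lowest in mbd124, ERF6 being lowest in sant1234-null; on the right ERF098 sits near 9.05 FPKM in 3 mutants while ERF053 and ERF054 are high in mbd124 and sant1234-null.

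Some large differences were not called, and most of them concern members that overlap another annotated gene. Such an overlap was found for 10 members (ERF015, ERF017, ERF018, ERF019, ERF021, ERF088, ERF105, ERF106, ERF109 and ERF117), and since the use of strand in counting is not given in the sources used here, their values are uncertain. The median SE of the tested members of this set was 0.51 in mbd124 and 0.51 in sant1234-null, against 0.20 for the other tested members in each. In hhp1 and hda6 the gap was small, with 0.21 and 0.23, against 0.17 and 0.20. ERF109 (RRTF1), a redox-responsive factor of group X, had 0.347 FPKM in hhp1, 0.513 in mbd124, 0.366 in sant1234-null and 0.612 in hda6, against 2.73 to 2.79 FPKM in WT. Although all 4 mutants lay below WT, the authors' deposited tables called it in hhp1 alone (-3.00 ± 0.54, Cuffdiff adjusted p 0.0138). It missed the threshold in those tables for mbd124 (adjusted p 0.107), sant1234-null (0.0763) and hda6 (0.272). ERF017 had 0.178 to 0.402 FPKM in the mutants, against 1.02 to 1.05 FPKM in WT, with SE between 1.49 and 1.67 and no call. ERF019 had 1.59 FPKM in mbd124 against 0.0990 FPKM in WT (4.00 ± 1.86, adjusted p 0.600 in the authors' deposited table). In these 3 genes a missing call does not show an equal level. Without the 10 overlapping members, 2 of 53 tested rose and 10 fell in hhp1, and 16 of 55 rose and 14 fell in mbd124. In sant1234-null 9 of 56 rose and 13 fell, and in hda6, 8 of 55 rose and 10 fell. Calls in either direction made up 6.14%, 11.3%, 15.3% and 12.0% of all tested genes, in the same order.

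Promoters were read as the 250 bases before and 50 bases from each annotated start in TAIR10.1, whose gene ends equal those of the files for all 80 members. They were searched on both strands for the GCC box (AGCCGCC), the DRE core (CCGAC), the rapid stress response element (CGCGTT), the G box (CACGTG), bound by bZIP and bHLH factors, and the W box form TTGACC, bound by WRKY factors. No motif contains another. The G box stood in 11 of 77 AP2/ERF members (14.3%), against 7.68% of 27443 promoters of protein-coding genes. The other motifs lay near the background in the family: the DRE core in 15.6% against 15.0%, the W box in 14.3% against 14.2%, the GCC box in 1 of 77 against 0.794% and the rapid stress response element in 5.19% against 3.40%. By call, the G box stood in 5 of 16 members higher in mbd124, 4 of 9 higher in sant1234-null and 3 of 8 higher in hda6, and in 3 of 17, 3 of 16 and 2 of 12 members lower in them. In hhp1 it stood in 0 of 2 members that rose and 3 of 13 that fell. The W box stood in 0 of 2, 1 of 16, 0 of 9 and 0 of 8 members higher in hhp1, mbd124, sant1234-null and hda6, and in 3 of 13, 4 of 17, 4 of 16 and 2 of 12 members lower in them. These counts are small, and a match is only a description of the letters. The promoters of the 4 members that rose in sant1234-null and hold a G box are printed to show where it lies. Sequences run 5′ to 3′ on the gene's strand, and capitals mark the G boxes.
ERF098, chr3:8290115-8290414, minus strand: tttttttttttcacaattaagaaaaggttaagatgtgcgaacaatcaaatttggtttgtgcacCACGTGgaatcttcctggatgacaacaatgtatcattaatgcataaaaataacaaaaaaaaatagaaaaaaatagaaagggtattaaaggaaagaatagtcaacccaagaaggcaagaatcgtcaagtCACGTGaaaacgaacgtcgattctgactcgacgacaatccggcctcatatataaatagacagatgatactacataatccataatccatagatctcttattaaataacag
ERF020, chr1:26938119-26938418, plus strand: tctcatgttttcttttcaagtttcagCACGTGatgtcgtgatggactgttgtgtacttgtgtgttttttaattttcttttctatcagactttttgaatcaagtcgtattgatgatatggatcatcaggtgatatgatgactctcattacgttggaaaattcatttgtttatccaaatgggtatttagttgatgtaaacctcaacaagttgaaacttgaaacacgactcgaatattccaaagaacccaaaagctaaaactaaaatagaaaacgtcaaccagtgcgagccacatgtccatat
ERF4, chr3:5121053-5121352, plus strand: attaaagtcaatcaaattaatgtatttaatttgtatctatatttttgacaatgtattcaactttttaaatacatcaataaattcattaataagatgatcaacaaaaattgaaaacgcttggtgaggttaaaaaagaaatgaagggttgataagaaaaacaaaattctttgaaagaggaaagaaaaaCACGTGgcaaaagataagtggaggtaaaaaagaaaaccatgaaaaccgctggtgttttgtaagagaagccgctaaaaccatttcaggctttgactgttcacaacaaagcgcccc
ERF15, chr2:13307523-13307822, minus strand: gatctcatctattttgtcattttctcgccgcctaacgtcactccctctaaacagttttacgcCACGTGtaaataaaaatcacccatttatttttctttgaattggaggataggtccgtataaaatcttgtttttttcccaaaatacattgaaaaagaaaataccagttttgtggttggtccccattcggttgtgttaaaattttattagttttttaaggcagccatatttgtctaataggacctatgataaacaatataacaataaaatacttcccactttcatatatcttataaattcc
The G boxes begin at positions -187 and -59 of ERF098, -224 of ERF020, -64 of ERF4 and -188 of ERF15, counted from the start as 1 with no position 0. ERF098 was the one among these with a pair of G boxes.

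H3ac on the members was measured as RPKM (reads scaled to gene length and mapped reads) over the gene, 1 value per genotype, with 78316244 reads summed over genes in sant1234-null, 68093284 in hda6 and 69959151 in WT. In WT the members spanned 5.63 to 136 RPKM with a median of 25.9 RPKM, against 10.7 RPKM over all genes, and ERF4 was the highest. Between 357 and 12941 reads stood behind a member's WT value, so counting error is small, but it leaves out the spread between plants. In sant1234-null, 10 of 80 members were at least 1.5-fold higher and 7 at least 1.5-fold lower on the RPKM + 1 scale, against 12.2% and 3.19% of all genes. In hda6, 3 were higher and 5 lower, against 9.49% and 2.50% of all genes. Centred on the median of all genes, the split was 9 higher and 10 lower in sant1234-null and 2 higher and 9 lower in hda6. The median log2 ratio of the members was -0.03 in sant1234-null and -0.20 in hda6, against 0.08 for all genes in each.

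The H3ac change of a member went with its WT level, as it did for genes at large. Because the same WT value, with no input subtracted, sets both the level and the ratio, error in it can give such a slope. The source of the slope was not tested. Among the 31 members under 20 RPKM in WT the median log2 ratio was 0.34 in sant1234-null and 0.20 in hda6. It was 0.10 in each for all genes from 5.63 RPKM, the level of the lowest member, to 20 RPKM in WT. Genes below that level were left out of this comparison. Among the 25 members at 40 RPKM or more it was -0.39 and -0.46, against -0.42 and -0.48 for all such genes. The highly acetylated members thus lay close to other genes of their level, and none of the 25 was above WT in hda6. ERF104 had the largest loss in sant1234-null, with 28.6 RPKM there and 38.5 in hda6, against 60.5 RPKM in WT. The ratio in sant1234-null was 0.473 (95% interval 0.453 to 0.494, counting error only). Its neighbour ERF107 had 18.7 RPKM in sant1234-null and 23.8 in hda6, against 34.3 RPKM in WT. ERF106, ERF003, ERF034, ERF070 and ERF4 were the other members at least 1.5-fold lower in sant1234-null, and ERF6, ERF1A, ERF104, ERF069 and ERF070 were those in hda6.

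All 10 members past 1.5-fold upward in sant1234-null lay under 20 RPKM in WT, the same WT value being the base of their ratio. ERF084 had 31.9 RPKM in sant1234-null and 22.3 in hda6, against 14.0 RPKM in WT. ERF122 had 35.7 RPKM in sant1234-null and 22.0 in hda6, against 16.8 RPKM in WT, and ERF042 had 24.0 and 15.9, against 11.1 RPKM in WT. In the RNA tables, ERF084 was listed at 0.0226 FPKM in sant1234-null and 0.0265 in hda6, against 0 in WT, and ERF122 at 0 throughout, and neither was tested. ERF042 had 0.633 FPKM in sant1234-null against 0.634 FPKM in WT and was tested but not called. ERF095 was higher in sant1234-null and not in hda6, with 29.0 RPKM there and 14.3 in hda6, against 14.0 RPKM in WT.

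**Figure D3:**
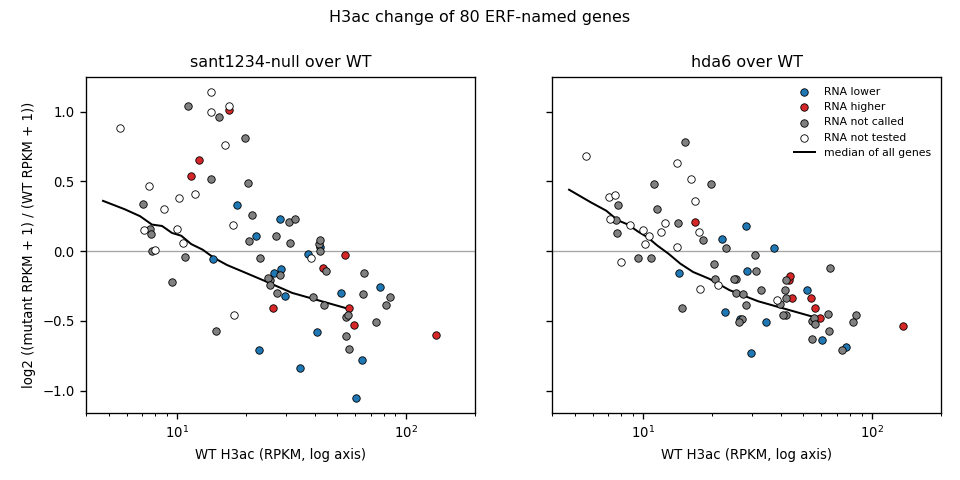
Log2 ratio of H3ac RPKM + 1 in the mutant over WT against the WT level (log axis), 1 point per ERF-named gene, coloured by its RNA call in the same mutant. The black line is the median of all genes in 15 bins of WT level. Points slope down with the line, and the WT value enters both axes. ERF104 is the lowest in sant1234-null at -1.05.

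For peaks, unlike for gene RPKM, the authors' deposited DiffBind tables give a test. In sant1234-null 76 peaks lay on 72 members, and 13 were called higher and 14 lower at an FDR under 0.05 (17.1% and 18.4%, against 15.2% and 12.9% of all 24998 peaks). In hda6 74 peaks lay on 71 members, and 4 were called higher and 25 lower (5.41% and 33.8%, against 5.29% and 22.5% of all 24898 peaks). The members' share of called losses thus stood above that of all peaks in both mutants and their share of gains near it. Their median WT H3ac over the gene was also higher than that of all genes (25.9 against 10.7 RPKM). Peaks of a matched WT level were not compared. The median log2 fold of the members' peaks in the authors' deposited tables was -0.11 in sant1234-null and -0.37 in hda6, against -0.02 and -0.23 for all peaks. The peak on ERF104 was lower in both mutants in the authors' deposited tables, which place it at slightly different intervals (TAIR10). Its log2 fold was -1.17 in sant1234-null (chr5:24766631-24767031, DiffBind FDR 6.32e-08) and -0.77 in hda6 (chr5:24766677-24767077, DiffBind FDR 0.00323). The largest gains in sant1234-null were on ERF117 (7.04), ERF096 (4.67), ERF084 (3.33) and ERF095 (2.02) in the authors' deposited table, and none of these 4 was tested in any RNA table. For ERF117 the deposited log2 concentration was 5.58 in sant1234-null against 0.00 in WT, so its fold is set against a WT value at the floor. In hda6 the gains were on ERF084 (1.38), ERF027 (1.03), ERF042 (0.81) and ERF056 (0.58) in the authors' deposited table.

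RNA and H3ac changes went together in some members and parted in others. Over the 64 members tested in sant1234-null the Spearman correlation of the RNA and H3ac log2 ratios was 0.10, and over the 61 tested in hda6 it was -0.04, against 0.23 and 0.07 over all tested genes. The Pearson correlations were 0.27 and 0.07, against 0.31 and 0.19 over all tested genes. These are descriptions across genes, which share libraries and are not independent. ERF098 had 35.0 RPKM in sant1234-null and 19.7 in hda6, against 16.8 RPKM in WT, and its peak rose in sant1234-null (1.69, FDR 1.26e-07) and was not called in hda6 (0.29, FDR 0.469) in the authors' deposited tables. Its RNA level was nearly equal in both, 8.87 FPKM in sant1234-null and 9.05 in hda6. ERF053 and ERF054, whose RNA rose in sant1234-null, gained H3ac there (peak log2 folds of 1.62 and 0.73 in the authors' deposited table).

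Other rises came without a gain in the mark over WT, at genes with a high WT level of H3ac. ERF020 RNA rose by 3.80 on the log2 scale in sant1234-null, with 52.8 RPKM of H3ac there against 53.9 RPKM in WT. ERF061 had 40.1 RPKM in sant1234-null and 37.5 in hda6, against 43.5 RPKM in WT. ERF060 and ERF4 rose in RNA while their peaks fell in both mutants: the log2 folds were -0.59 in sant1234-null and -0.57 in hda6 for ERF060, and -0.61 and -0.52 for the main peak of ERF4, in the authors' deposited tables. All genes at 40 RPKM or more in WT, the range of these genes, had a median H3ac log2 ratio of -0.42 in sant1234-null and -0.48 in hda6. In sant1234-null, ERF020 (-0.03) and ERF061 (-0.12) lay above that median, and ERF060 (-0.53) and ERF4 (-0.60) below it. In hda6 the values were -0.34, -0.21, -0.48 and -0.54, in the same order. Among falls, ERF104, ERF107 and ERF106 lost RNA and H3ac together in sant1234-null. ERF012, by contrast, had 25.8 RPKM in sant1234-null and 25.6 in hda6, against 28.3 RPKM in WT, with no called peak, and ERF013 had 36.7 and 37.6, against 37.2 RPKM in WT. No ChIP-seq of hhp1 or mbd124 was analysed here, so the rises of group I in mbd124 have no H3ac value beside them.

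**Figure D4:**
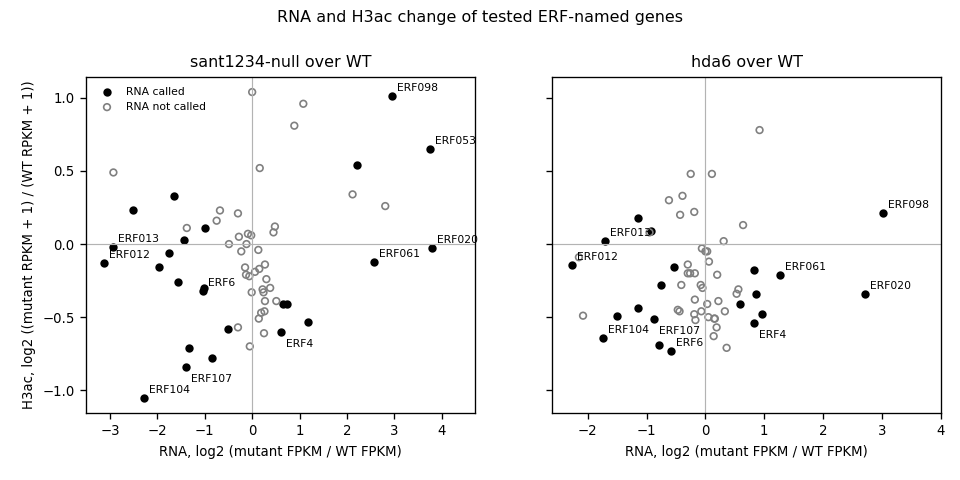
H3ac log2 ratio (RPKM + 1) against RNA log2 ratio (FPKM) of the tested ERF-named genes, 64 in sant1234-null and 61 in hda6, both over WT, with RNA calls as filled points. ERF098 lies at 2.95 and 1.01 in sant1234-null and at 3.02 and 0.21 in hda6, while ERF020 and ERF061 rise in RNA at an H3ac ratio of 0 or below.

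Upstream of the family, the signalling genes gave no call and the genes of ethylene synthesis gave several. Of 14 tested ethylene receptor and signalling genes, among them ETR1, CTR1, EIN2, EIN3 and EBF1, none was called in any of the 4 authors' deposited tables. Of the ethylene synthesis genes, 0 of 11 tested rose and 0 fell in hhp1, 2 of 12 rose and 4 fell in mbd124, 2 rose and 2 fell in sant1234-null, and 2 rose and 1 fell in hda6. In either direction that is 6 of 12 in mbd124, 4 of 12 in sant1234-null and 3 of 12 in hda6, against 11.3%, 15.3% and 12.0% of all tested genes. ACS6 and ACS11, which make the ethylene precursor, were called lower in mbd124 (18.0 against 33.8 FPKM in WT, and 1.58 against 5.37) and in sant1234-null (17.8 against 33.9 FPKM in WT, and 2.74 against 5.39). ACS7 and ACS8 were called lower in mbd124 too. The called rises were those of ACS5 (log2 change 1.15 ± 0.25) and ACO3 (0.53 ± 0.15) in mbd124, and of ACS4 (1.16 ± 0.36) and ACO3 (0.73 ± 0.16) in sant1234-null. In hda6, ACS7 (5.52 against 2.44 FPKM in WT) and ACS8 (9.50 against 4.45 FPKM in WT) were called higher and ACO1 lower (19.3 against 28.3 FPKM in WT). Of 4 tested ethylene output genes, the defensin PDF1.2A, a target of ERF094, was called lower in hhp1 (0.408 against 5.58 FPKM in WT), mbd124 (1.62 against 5.56 FPKM) and sant1234-null (2.12 against 5.59 FPKM), and none was called in hda6.

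AP2/ERF genes outside the naming rule were also called in both directions. Of those tested, 0 of 24 rose and 5 fell in hhp1, and 5 of 26 rose and 4 fell in mbd124. In sant1234-null 4 of 26 rose and 4 fell, and in hda6, 1 of 25 rose and 4 fell. Among all tested genes 2.88%, 4.85%, 9.33% and 7.25% rose and 3.26%, 6.42%, 5.93% and 4.79% fell, in the same order. The cold factors CBF1 and CBF2 of 1 gene cluster parted. CBF1 had 6.96 FPKM in mbd124 against 1.86 FPKM in WT, and CBF2 had 8.43 FPKM in mbd124 against 14.7 FPKM in WT. CBF1 rose and CBF2 fell in sant1234-null and hda6 too, while in hhp1 both were called lower. CBF3 of the same cluster was called higher in mbd124 (6.78 against 0.496 FPKM in WT) and sant1234-null (2.53 against 0.498 FPKM in WT). In hhp1 and hda6 CBF3 was not tested. Because CBF1, CBF2 and CBF3 are closely related and handling of shared reads is not given in the sources used here, their values are uncertain.

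Genes of touch, wounding and general stress, which handling can move within minutes, also gave many calls. Of 10 such genes 5 rose and 3 fell in hhp1, and 4 rose and 4 fell in mbd124. In sant1234-null 5 rose and 4 fell, and in hda6, 6 rose and 3 fell. The shares of all tested genes called in either direction were 6.14%, 11.3%, 15.3% and 12.0%, in the same order. The touch gene TCH4 had 422 FPKM in hhp1, 24.6 in mbd124, 86.3 in sant1234-null and 266 in hda6, against 753 to 770 FPKM in WT, with the lowest level in mbd124. TCH2 and the stress zinc-finger gene ZAT12 were also called lower in all 4, whereas WRKY33, WRKY40, WRKY53 and SZF2 were called higher in all 4. Their part in the changes of the ERF genes was not tested.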

How the data were processed

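RNA-seq (15 samples) and H3ac ChIP-seq (9 ChIP and 9 input samples) were grouped by the genotype in their labels. The submitters' processing notes name TopHat2 2.0.12 and Bowtie2 2.4.1, Cufflinks 2.2.1 with Cuffdiff, and for the rest CASAVA, bedtools, DiffBind and MACS2 2.1.1.20160309, without their roles; TAIR10 is the build named. Handling of shared reads and of strand is not given in the sources used here. The 4 deposited RNA tables hold the authors' FPKM per genotype, a p-value, a q-value (adjusted p) and a test statistic. Each table was scaled separately, and WT medians relative to the hhp1 table were 0.998, 1.00 and 0.981 in mbd124, sant1234-null and hda6. The authors' statistic, a score, served only to derive standard errors, scaled by 1.74 to the deposited p-value. That scale is a median over genes, so the error of a single gene can be too small. The 3 deposited ChIP gene tables hold a read count and the authors' RPKM, with no input subtracted. The 2 deposited peak tables hold log2 concentrations, the authors' log2 fold and an FDR. The depth of the RNA libraries is unknown. The 4 tables of transposable elements and the input values were not used here.

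Members were taken by symbol, and each log2 change was computed here as the plain ratio of the FPKM values, with no pseudocount. The calls are those of the authors' Cuffdiff (adjusted p under 0.05 among genes marked as tested) and DiffBind (FDR under 0.05). No new test was made, since each table holds 1 value per genotype. The labels do not say whether replicates were separate growths, so the p-values may measure only technical spread. H3ac ratios used RPKM + 1 and a fold of 1.5, with 95% intervals from read counts that cover counting error only. Peaks were assigned by 1 bp of overlap with the gene body. Groups I to X follow the published numbering of the family. Named members were the 8 largest rises and falls called per mutant, those called in all 4 tables, the 5 highest in WT and those past the H3ac threshold. Members, lists and other named genes were chosen with earlier results of these data known. The scripts ran in Python 3.11.15 with NumPy 2.4.6, pandas 2.3.3, SciPy 1.17.1 and matplotlib 3.10.9, and were tested on simulated data. Alternatives were an adjusted p or FDR of 0.01, minimum FPKM and RPKM, log2 and fold minimums, other pseudocounts, centring, other peak overlaps and subsets of members.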

Additional observations from a re-analysis of the deposited data

How the results depend on the processing

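Counts of called members stayed within 1.5 times under every alternative run, with these exceptions. Requiring an absolute log2 change of at least 1 left 9 called members in hda6, against 20. A fold of 2 in H3ac RPKM left 5 members in sant1234-null, against 17, and 0 in hda6, against 8; none of these RPKM values has a test. An FDR under 0.01 left 7 called peaks in hda6, against 29. Centring changed the split of H3ac gains and losses given with them. For the named members, 48 of 58 calls also passed a log2 change of 1, 55 an adjusted p under 0.01, and 58 the adjustment over genes with a mean FPKM of at least 1, and no direction changed with a pseudocount of 1 or 0.1. Over the alternatives the median log2 change of the members lay between -0.15 and -0.09 in hhp1, -0.01 and 0.08 in mbd124, -0.06 and -0.01 in sant1234-null, and -0.10 and -0.07 in hda6, and no error can be given for it. Leaving out members that overlap another gene was chosen after seeing the data. No paired analysis was possible because the tables hold 1 value per genotype and no replicate columns, and for the same reason no replicate could be left out. Depth of the RNA libraries is unknown, so no floor can be set for members listed at 0.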
